A study of Mus musculus with 24 samples.

Results

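The mRNAs of 8 genes that handle arginine, nitric oxide and itaconate were followed in pulmonary fibroblasts of WT and TLR4-/- mice: Nos2, Arg1, Arg2, Ass1, Acod1, Gch1, Slc7a2 and Odc1. They were chosen by name from the 55291 gene names counted in each library, and all 8 passed the filter on low counts that left 16258 genes for testing. Fibroblasts had been isolated from C57BL/6 WT or TLR4-/- mice that were 4 to 8 weeks old, each group from a pool of 3 to 4 lungs, and were used at passages 3 to 6 after a night in reduced serum medium. Cells of each genotype received PBS, rmCIRP at 1 μg/ml (the cold-inducible RNA-binding protein, made as a recombinant mouse protein), rmTGF-β1 at 2 ng/ml (recombinant mouse transforming growth factor) or both for 24 h. These 8 conditions gave 24 libraries of total RNA, 3 from each. The labels do not say that the libraries of a condition came from separate animals, so p-values measure only the spread between libraries, which may be technical.

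Arginine enters cells through cationic amino acid carriers and is then claimed by competing enzymes. Inducible nitric oxide synthase, the product of Nos2, turns it into nitric oxide and citrulline with tetrahydrobiopterin as a cofactor, whereas the arginases split it into urea and ornithine, the precursor of polyamines and proline. Itaconate is made from a citrate cycle intermediate, and it is best known from macrophages that have met bacterial lipopolysaccharide, a ligand of TLR4. Slc7a2 encodes a cationic amino acid carrier, Ass1 the argininosuccinate synthase that starts the return of citrulline to arginine, and Gch1 the GTP cyclohydrolase that starts tetrahydrobiopterin synthesis. Arg1 encodes the cytosolic arginase, Arg2 the mitochondrial arginase, Odc1 the ornithine decarboxylase that commits ornithine to polyamines, and Acod1 the decarboxylase that forms itaconate.

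RefSeq promoters, from 250 bases before to 50 bases after the start of a gene in the table for GRCm38.p6, matched 4 of the 8 genes by symbol: Ass1, Acod1, Gch1 and Odc1. Promoters of 3 genes that rose together with rmCIRP in WT cells are printed 5′ to 3′ on the strand of the gene, because their letters differ widely. Capitals mark matches to any of 8 motifs searched on both strands. These were the TATA box letters TATAAA, the E-box letters CACGTG, the SMAD box letters CAGACA, the C/EBP core TTNNGNAA and the AP-1 letters TGANTCA, and by their names the kappa B motif, the STAT palindrome and the ISRE repeat.
Acod1, chr14:103046762-103047061, + strand: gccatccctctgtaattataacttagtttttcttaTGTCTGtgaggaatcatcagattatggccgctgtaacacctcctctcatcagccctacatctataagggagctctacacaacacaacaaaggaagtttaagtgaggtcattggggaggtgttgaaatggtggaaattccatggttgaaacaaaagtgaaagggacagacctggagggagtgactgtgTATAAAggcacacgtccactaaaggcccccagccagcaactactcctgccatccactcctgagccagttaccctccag
Gch1, chr14:47189364-47189663, - strand: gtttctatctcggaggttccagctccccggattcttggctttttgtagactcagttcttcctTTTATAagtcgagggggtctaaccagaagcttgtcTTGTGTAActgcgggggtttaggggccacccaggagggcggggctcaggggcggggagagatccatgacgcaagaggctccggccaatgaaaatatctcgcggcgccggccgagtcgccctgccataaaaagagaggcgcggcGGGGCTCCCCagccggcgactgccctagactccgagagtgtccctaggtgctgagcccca
Odc1, chr12:17544623-17544922, + strand: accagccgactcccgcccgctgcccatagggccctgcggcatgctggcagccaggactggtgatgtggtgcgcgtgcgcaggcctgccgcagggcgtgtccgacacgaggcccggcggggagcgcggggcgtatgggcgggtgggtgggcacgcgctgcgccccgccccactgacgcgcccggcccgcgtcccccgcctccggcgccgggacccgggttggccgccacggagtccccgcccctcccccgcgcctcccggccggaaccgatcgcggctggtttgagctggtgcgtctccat
The Acod1 promoter had a GC content of 47%, and its TATAAA lay 28 bases before the start. It also held CAGACA, read on the opposite strand, 215 bases before the start. The Gch1 promoter, at 60.3% GC, held a kappa B match 10 bases before the start that reads on both strands, TTNNGNAA at 153 bases and TATAAA, on the opposite strand, at 188 bases before the start. The Odc1 promoter had a GC content of 78%, higher than in 98.1% of all promoters in the table, and held none of the 8 motifs. The Ass1 promoter, at 74% GC, held CACGTG 36 bases before its start. Among all 32851 promoters of this length, 13.6% held TATAAA, 8.46% the kappa B motif, 40.7% TTNNGNAA, 7.15% CACGTG and 21% CAGACA. These matches describe letters only.

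Library totals were even, from 29853346 to 39664606 reads on genes. Tlr4 mRNA was not lower in the libraries labelled TLR4-/-, at 903 ± 20.2 normalized counts (SD, n = 3) with PBS against 759 ± 41.9 (SD, n = 3) in WT, so those libraries are named by their label throughout. Counts per gene do not show whether reads covered a deleted part of the gene. A normalized count is a read count divided by the size factor of its library. The label of fibroblasts fitted the cells in part: 9 fibroblast markers summed to between 435603 and 619181 normalized counts per library in WT and between 429979 and 574961 in TLR4-/- libraries, but all 13 macrophage markers were also read, at sums of 78409 to 96486 in WT and 311631 to 395813 in TLR4-/- libraries. In bulk RNA, fewer cells of a type cannot be told apart from less RNA per cell. Markers of T, B and NK cells had at most 10 reads in every library for 6 of 6 genes, and neutrophil markers for 3 of 5. With PBS, Lyz2 alone had a mean of 78175 normalized counts in WT and 281642 in TLR4-/- libraries, most of the macrophage sum. S100a8 alone had 132 in WT and 151 in TLR4-/- libraries, most of the neutrophil sum. The third TLR4-/- library with both proteins stood apart. Its counts differed from those of its 2 companions by a chi-square per degree of freedom of 47.8 and 32.9. No pair of libraries in another condition exceeded 16.3. The highest of those values, 16.3 and 12.5, were for pairs that held the third TLR4-/- library with rmTGF-β1 alone. Results that rest on the third TLR4-/- library with both proteins are given with and without it.

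In WT pulmonary fibroblasts, rmCIRP raised 7 of the 8 genes, with Arg1 as the exception. Of all genes tested, 19.8% rose and 24.1% fell in this comparison, and 43.9% changed in either direction. The median log2 fold change of the 8 genes was 1.98, against -0.02 over all genes tested. Libraries with rmCIRP and with PBS did not overlap for 7 of the 8 genes, as for 50.8% of all genes tested. Every test was a quasi-likelihood F-test in edgeR, adjusted over the 16258 genes by the method of Benjamini and Hochberg, and an adjusted p under 0.1 was called.

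The largest change of the 8 genes was that of Nos2. Its normalized counts were 10.6, 7.99 and 12.5 with PBS and 1462, 1498 and 1867 with rmCIRP. The mRNA was close to the limit of counting in every PBS library and abundant in every rmCIRP library. The log2 fold change was 7.26 (SE 0.18, edgeR adjusted p = 2.8e-18), a 153-fold rise.

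Among the 8 genes, those that supply inducible nitric oxide synthase rose as well, by smaller factors. Gch1, for the cofactor, had 478, 603 and 561 normalized counts with PBS and 1996, 1914 and 1925 with rmCIRP, for a log2 fold change of 1.82 (SE 0.11, edgeR adjusted p = 5.8e-12). Slc7a2, for arginine uptake, had 2582, 4336 and 3427 normalized counts with PBS and 19787, 18371 and 20410 with rmCIRP, for a log2 fold change of 2.50 (SE 0.28, edgeR adjusted p = 3.3e-07). Its PBS libraries were the more scattered relative to their mean, and the highest of them was still far under the lowest rmCIRP library. Ass1, for the recycling of citrulline, was already abundant at 1711, 1875 and 1905 normalized counts with PBS and reached 2763, 2663 and 2794 with rmCIRP. Its rise was the smallest of the 7, a log2 fold change of 0.58 (SE 0.05, edgeR adjusted p = 1.8e-08).

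On the arginase side, the 2 arginase genes gave different readings. Arg1 had 471, 576 and 506 normalized counts with PBS and 556, 540 and 520 with rmCIRP. These ranges overlapped, and the log2 fold change was 0.05 (SE 0.25, edgeR adjusted p = 0.90). Arg2 went from 12.5, 12 and 11.4 normalized counts with PBS to 49.9, 53.5 and 57.3 with rmCIRP, for a log2 fold change of 2.14 (SE 0.27, edgeR adjusted p = 1.3e-06). Its level stayed low in both conditions, with 11 to 13 raw reads per PBS library and 47 to 58 per rmCIRP library. Odc1, downstream of both arginases, had 16686, 18970 and 17144 normalized counts with PBS and 51234, 49292 and 55285 with rmCIRP, for a log2 fold change of 1.56 (SE 0.19, edgeR adjusted p = 1.4e-06).

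Acod1 had the second largest change of the 8 genes. Its normalized counts were 616, 711 and 742 with PBS and 9434, 9064 and 10308 with rmCIRP, so the gene was well expressed before treatment, unlike Nos2. The log2 fold change was 3.80 (SE 0.09, edgeR adjusted p = 2.3e-18), a 13.9-fold rise. The summed macrophage markers, mostly Lyz2, were at 93831 ± 4495 under PBS and 83881 ± 2749 under rmCIRP (SD, n = 3 each). Of the 13 markers 5 rose and 8 fell. Other marker sums moved too. The neutrophil sum, mostly S100a8, went from 140 ± 12.5 to 280 ± 23.2, with 1 of 2 tested markers called higher. The fibroblast markers went from 563530 ± 22198 to 449510 ± 23371, with 6 of 9 called lower and 2 higher. All 4 smooth muscle markers and the 3 epithelial markers tested were called lower, and 1 of 5 endothelial markers was called higher. Their part in the changes of the 8 genes was not tested.

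**Figure D1:**
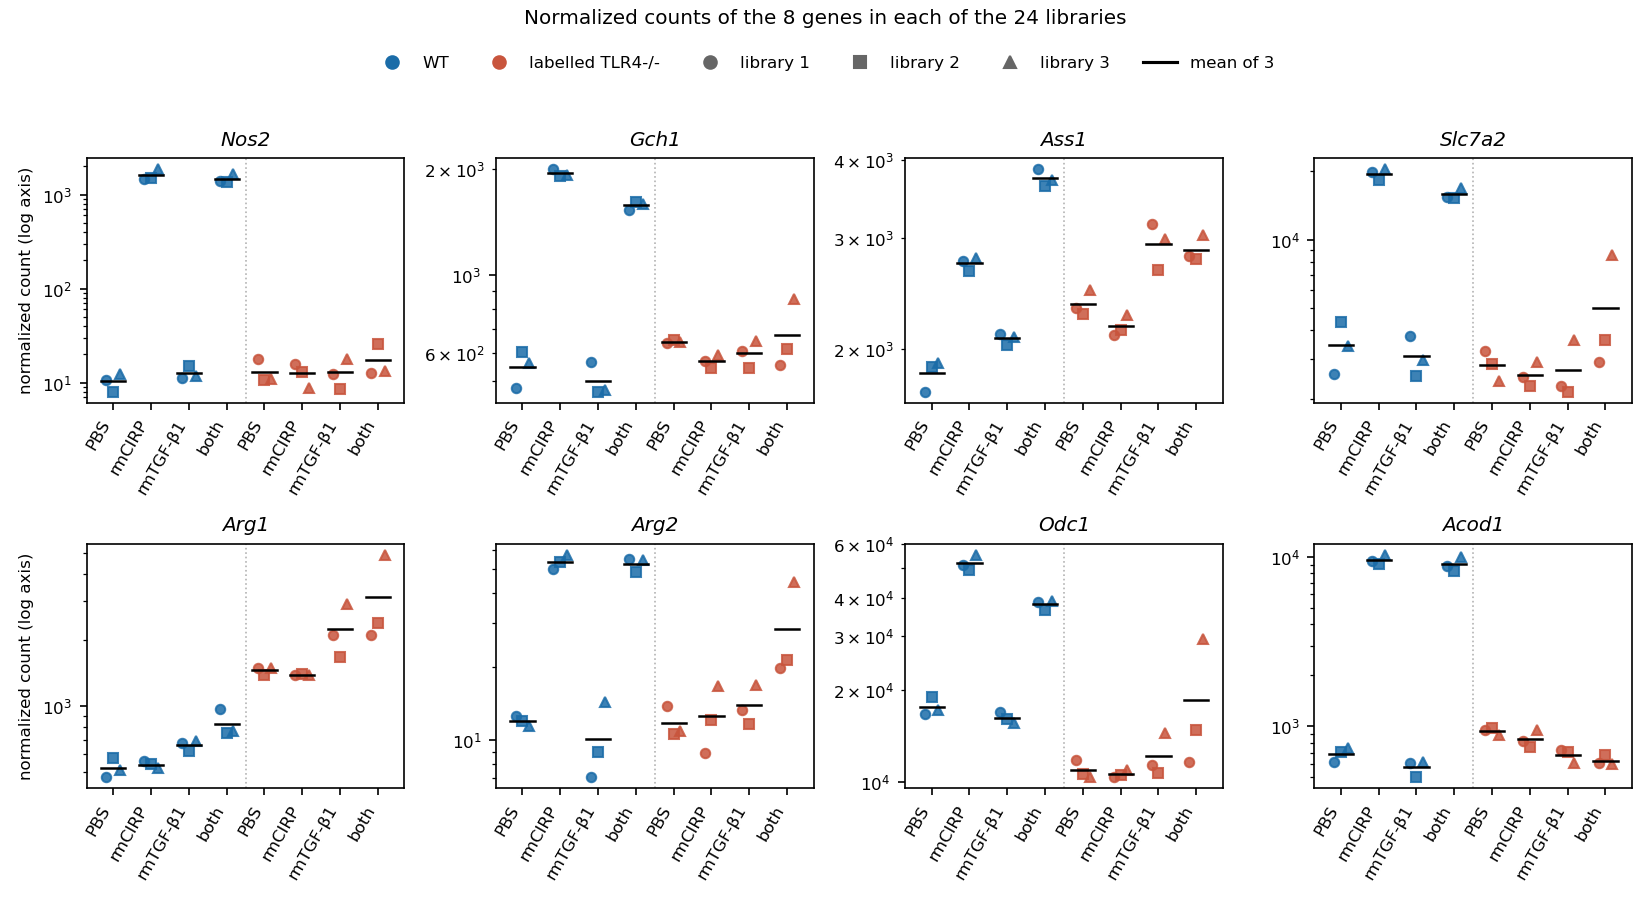
Normalized counts of the 8 genes (log axis, one panel per gene) in the 24 libraries, by condition; blue is WT, red is labelled TLR4-/-, the symbol gives the library number and the bar is the mean of 3. In WT cells, 7 genes are high wherever rmCIRP was added, Arg1 is higher in every TLR4-/- library than in any WT library, and the third TLR4-/- library with both proteins lies well above its 2 companions for Slc7a2, Odc1, Arg1 and Arg2.

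The panels of single libraries show 2 shapes. For Nos2, Acod1, Gch1, Slc7a2, Arg2 and Odc1, the WT libraries with rmCIRP and with both proteins had the highest means of the 8 conditions. For Arg1, the 4 TLR4-/- conditions came first and the lowest TLR4-/- library, at 1375 normalized counts, lay above the highest WT library, at 969. Ass1 was between these shapes, with its highest mean in WT with both proteins (3736 ± 115, SD, n = 3) and the next in TLR4-/- with rmTGF-β1 (2943 ± 248, SD, n = 3).

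The response to rmCIRP was measured again in WT cells that also received rmTGF-β1, by comparing both proteins with rmTGF-β1 alone, in libraries that share none with the comparison above. Here too 7 of the 8 genes rose and Arg1 was not called, while 20.5% of all genes tested rose, 21.7% fell and 42.2% changed in either direction. Libraries of the 2 conditions did not overlap for all 8 genes and for 50% of all genes tested. Nos2 had 11.1, 15 and 11.8 normalized counts under rmTGF-β1 and 1381, 1367 and 1641 under both, a log2 fold change of 6.84 (SE 0.18, edgeR adjusted p = 4.7e-18). Acod1 had 612, 501 and 615 under rmTGF-β1 and 8875, 8289 and 9918 under both, a log2 fold change of 3.96 (SE 0.10, edgeR adjusted p = 1.5e-18). In both genes the treated libraries were again far above all others. The log2 fold changes of the other genes called were 2.35 for Slc7a2, 2.33 for Arg2, 1.65 for Gch1, 1.23 for Odc1 and 0.84 for Ass1.

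Arg1 had 675, 618 and 690 normalized counts under rmTGF-β1 and 969, 749 and 770 under both, without overlap. Its log2 fold change of 0.32 (SE 0.24) was not called by edgeR (adjusted p = 0.31). Without the third TLR4-/- library with both proteins, which is not one of the libraries compared, the same log2 fold change of 0.32 had an edgeR adjusted p = 0.078.

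The difference between the responses to rmCIRP with and without rmTGF-β1 in WT cells, tested as an interaction, was called for none of the 8 genes and for 0.0492% of all genes tested, or 8 genes. In this edgeR test 917 genes had an unadjusted p under 0.05, and DESeq2 called 37 genes. The value closest to the threshold among the 8 genes was that of Ass1, at a log2 difference of 0.26 (SE 0.08, edgeR adjusted p = 0.44). The other interaction values ran from -0.42 (SE 0.43) for Nos2 to 0.27 (SE 0.35) for Arg1. For Ass1 and Odc1 the interaction was called when only WT libraries were fitted, with adjusted p = 0.059 and 0.030 from edgeR.

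**Figure D2:**
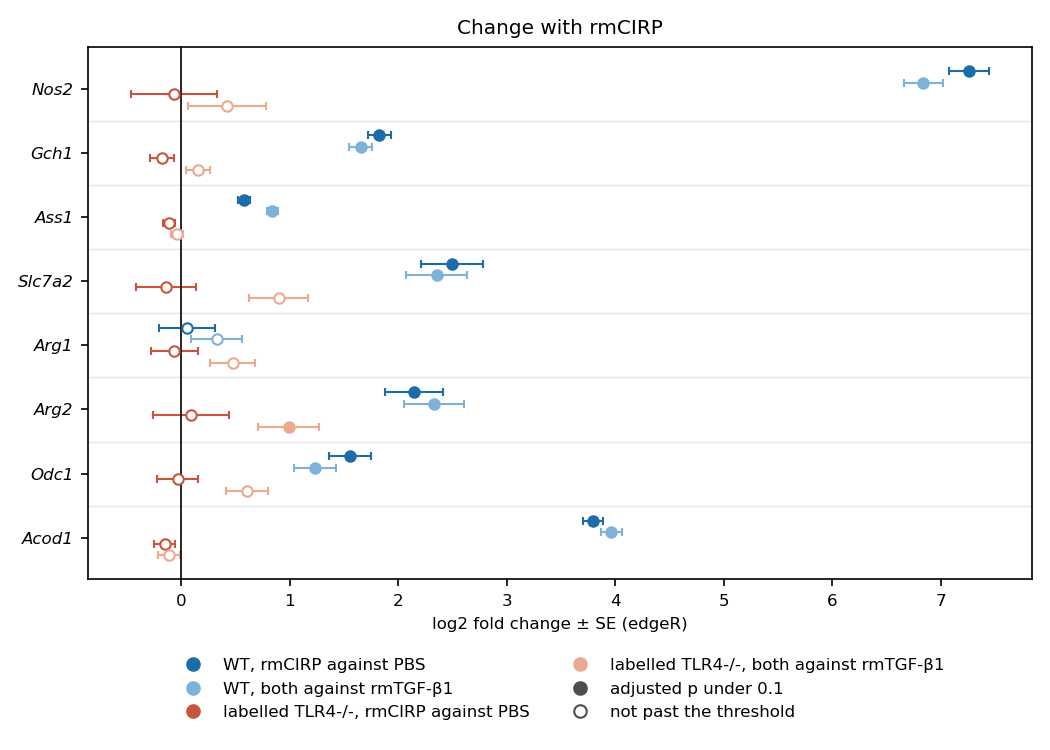
Log2 fold change (x axis) with rmCIRP for each of the 8 genes; bars are ± SE from edgeR, and filled points have an adjusted p under 0.1. The WT values lie to the right for 7 genes, whether compared with PBS or in the presence of rmTGF-β1, while among the TLR4-/- values only Arg2 with both proteins is filled.

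In the libraries labelled TLR4-/-, rmCIRP alone changed none of the 8 genes. No gene of the 16258 was called in this comparison (0%) by edgeR, 1136 had an unadjusted p under 0.05, and DESeq2 called 33. The log2 fold changes of the 8 genes ran from -0.18 for Gch1 (SE 0.11) to 0.09 for Arg2 (SE 0.35). Nos2 had 17.8, 10.6 and 11 normalized counts with PBS and 15.7, 13 and 8.85 with rmCIRP, and Acod1 had 946, 983 and 896 with PBS and 820, 759 and 950 with rmCIRP. The libraries overlapped for 6 of the 8 genes. Gch1 and Ass1 were lower in all 3 rmCIRP libraries without being called, as 13.7% of all genes tested did not overlap. For Nos2, with 8 to 29 raw reads in any TLR4-/- library, small changes were not detectable at this depth.

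The contrast of the 2 genotypes in how they responded to rmCIRP, tested directly, was called for 7 of the 8 genes, each with a smaller response in the libraries labelled TLR4-/-. Over all genes tested, 14.3% had a lower and 17.1% a higher response there, 31.4% in all. The difference in log2 fold change was -7.33 (SE 0.56) for Nos2, -3.95 (SE 0.13) for Acod1 and -2.64 (SE 0.39) for Slc7a2. It was -2.05 (SE 0.45) for Arg2, -2.0 (SE 0.15) for Gch1, -1.59 (SE 0.27) for Odc1 and -0.69 (SE 0.08) for Ass1, and the highest adjusted p among these 7 was 0.0019 from edgeR. For Arg1 it was -0.12 (SE 0.33, edgeR adjusted p = 0.84).

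With rmTGF-β1 present, this contrast was called for 6 of the 8 genes, all lower in TLR4-/-, against 10.4% of all genes lower, 10.5% higher and 20.9% in either direction. It was -6.42 (SE 0.52) for Nos2 and -4.08 (SE 0.14) for Acod1. It was -1.50 (SE 0.15) for Gch1, -1.46 (SE 0.39) for Slc7a2, -1.34 (SE 0.41) for Arg2 and -0.88 (SE 0.08) for Ass1. Odc1 was not called at -0.63 (SE 0.27, edgeR adjusted p = 0.13), but without the third TLR4-/- library with both proteins its value was -1.11 (SE 0.13, edgeR adjusted p = 8.4e-07). A fit blocked on replicate number also called Odc1, at -0.65 (edgeR adjusted p = 0.092). Without that library the value of Slc7a2 was -2.07 (SE 0.26), that of Arg2 -1.78 (SE 0.35) and that of Gch1 -1.69 (SE 0.11). Nos2 was then at -6.26, Acod1 at -4.04 and Ass1 at -0.91, all called, and Arg1 changed sign from 0.15 to -0.32 without being called in either fit (edgeR adjusted p = 0.27 without the library). Without the third TLR4-/- library with rmTGF-β1, Arg2 was no longer called, at -1.17 (edgeR adjusted p = 0.11). It was also not called with only the libraries compared, at -1.34 (edgeR adjusted p = 0.105).

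The library that stood apart bore on these genes unequally. In the 3 TLR4-/- libraries with both proteins, Slc7a2 had 2915, 3636 and 8565 normalized counts, Odc1 11626, 14849 and 29283, Arg1 2102, 2398 and 4908, and Arg2 19.7, 21.4 and 44.3. The third library was above the mean of the other 2 by a factor of 2.61 for Slc7a2, 2.21 for Odc1, 2.18 for Arg1, 2.16 for Arg2 and 1.46 for Gch1. The factor was 1.09 for Ass1, 0.93 for Acod1 and 0.69 for Nos2. Slc7a2, Odc1, Arg1 and Arg2 were thus high in that library, while Acod1 and Nos2 were not. Its summed macrophage markers were the highest of its condition, at 395813 against 348945 and 319006 in the other 2, and its summed fibroblast markers the lowest, at 429979 against 534758 and 492862. Its smooth muscle markers were also the lowest, at 169313 against 264159 and 244585. Its endothelial markers were at 548 against 220 and 190, and its neutrophil sum, mostly S100a8, was at 391 against 123 and 153. Their part in these values was not tested. In TLR4-/- cells with rmTGF-β1 alone, the third library was above the mean of the other 2 by smaller factors for the same genes. These were 1.64 for Slc7a2, 1.55 for Arg1, 1.35 for Arg2 and 1.31 for Odc1. The factor there was 1.70 for Nos2, 1.12 for Gch1, 1.02 for Ass1 and 0.85 for Acod1.

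In TLR4-/- cells, 1 of the 8 genes was called for both proteins against rmTGF-β1 alone, where 2.69% of all genes tested were called (1.56% higher, 1.13% lower), and the only one of the 8 without overlap, as 13% of all genes. This was Arg2, with 13.3, 11.7 and 16.8 normalized counts under rmTGF-β1 and 19.7, 21.4 and 44.3 under both, a log2 fold change of 0.99 (SE 0.28, edgeR adjusted p = 0.094). Without the third library with both proteins it was 0.54 (edgeR adjusted p = 0.65) and none of the 8 genes was called. It was also lost without the first or the second library with rmTGF-β1 alone (adjusted p = 0.40 and 0.27 from edgeR). Slc7a2 at 0.90 (SE 0.28), Odc1 at 0.60 (SE 0.19) and Arg1 at 0.47 (SE 0.21) were not called, and without that library they were at 0.28, 0.12 and -9.2e-05. The other genes were not called with or without it, and without it they were at 0.57 for Nos2, -0.045 for Gch1, -0.078 for Ass1 and -0.079 for Acod1. A fit blocked on replicate number called 3 genes, Arg2, Slc7a2 and Odc1.

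In WT cells, rmTGF-β1 alone moved these genes by log2 fold changes of at most 0.35 in size. It called 1 of the 8, against 12.4% of all genes tested (5.77% higher, 6.65% lower). Ass1 rose from 1711, 1875 and 1905 normalized counts with PBS to 2117, 2033 and 2092, a log2 fold change of 0.18 (SE 0.05, edgeR adjusted p = 0.041). The groups did not overlap for 3 of the 8 genes, Ass1, Arg1 and Acod1, as for 29.7% of all genes, but the call was lost without the first PBS library (adjusted p = 0.14) or without the first or the third rmTGF-β1 library (both adjusted p = 0.12, edgeR). Acod1 had 612, 501 and 615 normalized counts with rmTGF-β1, under all PBS libraries, at -0.26 (SE 0.10, edgeR adjusted p = 0.12). It was called without the first PBS library (-0.32, edgeR adjusted p = 0.077) and by DESeq2 (adjusted p = 0.083). In edgeR it was also called with only the libraries compared (adjusted p = 0.077), with no filter (0.0022) and without the third TLR4-/- library with both proteins (0.089). Arg1 had 471, 576 and 506 normalized counts with PBS and 675, 618 and 690 with rmTGF-β1, at 0.35 (SE 0.25, edgeR adjusted p = 0.45). It was called with only the libraries compared (edgeR adjusted p = 0.0053) and with no filter (1.4e-06). The median log2 fold change of the 8 genes was -0.13, against -0.02 over all genes.

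In TLR4-/- cells, rmTGF-β1 alone called 3 of the 8 genes, against 23.9% of all genes tested (12.1% higher, 11.7% lower), and the same 3 did not overlap, as 33.8% of all genes. Ass1 rose from 2322, 2276 and 2479 normalized counts with PBS to 3164, 2675 and 2989, a log2 fold change of 0.33 (SE 0.05, edgeR adjusted p = 0.00016). Acod1 fell from 946, 983 and 896 to 729, 704 and 611, a log2 fold change of -0.46 (SE 0.10, edgeR adjusted p = 0.0017). Arg1 rose from 1489, 1385 and 1493 to 2106, 1678 and 2932, a log2 fold change of 0.63 (SE 0.21, edgeR adjusted p = 0.045), with the third rmTGF-β1 library well above the others. The call of Arg1 was lost without that library (0.39, edgeR adjusted p = 0.30) or without the second PBS library (0.60, edgeR adjusted p = 0.13). Between genotypes, the response to rmTGF-β1 differed for none of the 8 genes in edgeR, where 0.0861% of all genes tested, or 14, were called, 1686 had an unadjusted p under 0.05, and DESeq2 called 165 genes.

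Adding rmTGF-β1 to rmCIRP, that is both proteins against rmCIRP alone, called 3 of the 8 genes in WT cells, against 20.5% of all genes tested (10% higher, 10.5% lower), and 5 did not overlap, as 36.4% of all genes did not. Ass1 rose from 2763, 2663 and 2794 normalized counts to 3863, 3638 and 3707, a log2 fold change of 0.44 (SE 0.05, edgeR adjusted p = 3.4e-06). Arg1 rose from 556, 540 and 520 to 969, 749 and 770, a log2 fold change of 0.62 (SE 0.25, edgeR adjusted p = 0.094), and was not called without any one of the 6 libraries (adjusted p from 0.12 to 0.28). Gch1 fell from 1996, 1914 and 1925 to 1525, 1611 and 1590, a log2 fold change of -0.31 (SE 0.10, edgeR adjusted p = 0.038), and was not called without the first rmCIRP library (adjusted p = 0.101) or the first library with both (adjusted p = 0.13). Odc1 had 51234, 49292 and 55285 normalized counts with rmCIRP and 38650, 36440 and 39018 with both, without overlap. Its log2 fold change of -0.45 (SE 0.19, edgeR adjusted p = 0.12) was not called. It was called in edgeR with a replicate block (adjusted p = 0.096), without the third TLR4-/- library with both proteins (0.00041) and with only the libraries compared (1.7e-06). Slc7a2 went from 19787, 18371 and 20410 normalized counts to 15426, 15226 and 16868, also without overlap. Its log2 fold change of -0.31 (SE 0.26, edgeR adjusted p = 0.50) was not called. With only the libraries compared (edgeR adjusted p = 0.00011) and with no filter (1.1e-08) it was.

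The same comparison in TLR4-/- cells, in libraries that share none with rmTGF-β1 against PBS, called 6 of the 8 genes, against 32.8% of all genes tested (17.2% higher, 15.6% lower). These 6 did not overlap, as 34.5% of all genes did not. Arg1 went from 1375, 1403 and 1382 normalized counts with rmCIRP to 2102, 2398 and 4908 with both, a log2 fold change of 1.17 (SE 0.21, edgeR adjusted p = 0.00043). Arg2 rose by a log2 fold change of 1.15 (SE 0.29), Slc7a2 by 0.97 (SE 0.28), Odc1 by 0.80 (SE 0.19) and Ass1 by 0.40 (SE 0.05), while Acod1 fell to 611, 678 and 598 from 820, 759 and 950, a log2 fold change of -0.42 (SE 0.10, edgeR adjusted p = 0.0030). Without the third library with both proteins, 4 calls were left: Arg1 at 0.70 (adjusted p = 0.00093), Ass1 at 0.36 (adjusted p = 9.3e-05), Odc1 at 0.31 (adjusted p = 0.028) and Acod1 at -0.39 (adjusted p = 0.015, all from edgeR). Slc7a2 at 0.35 (adjusted p = 0.24) and Arg2 at 0.71 (adjusted p = 0.105) were not called then. Nos2 and Gch1, not called in either fit, were at 0.64 and 0.040 without it. With only the libraries compared, edgeR no longer called Odc1, Slc7a2 and Arg2 (adjusted p = 0.13, 0.13 and 0.11).

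**Figure D3:**
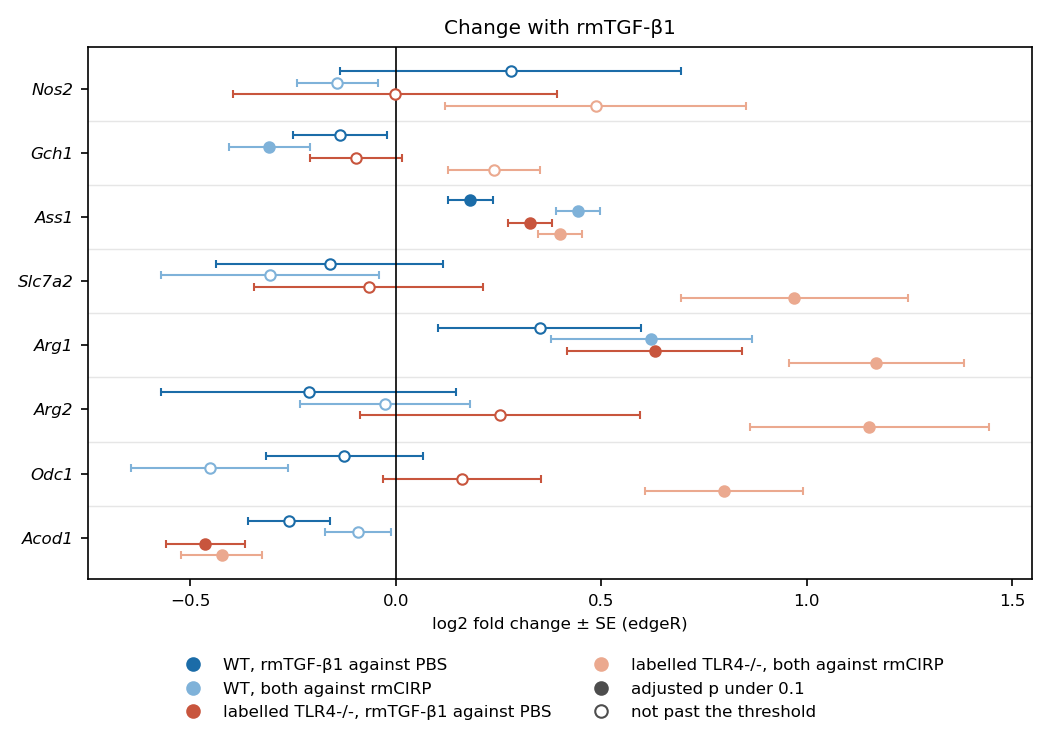
Log2 fold change (x axis) with rmTGF-β1 for each of the 8 genes; bars are ± SE from edgeR, and filled points have an adjusted p under 0.1. Ass1 is to the right of zero in all 4 comparisons, and Acod1 to the left in all 4 and filled in the TLR4-/- comparisons. The widest spread between comparisons is seen for Arg1, Arg2, Slc7a2 and Odc1. The third TLR4-/- library with both proteins enters the TLR4-/- comparison of both with rmCIRP for all 8 genes.

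The plot of changes with rmTGF-β1 covers a range of log2 values of at most 1.17 in size. Only Ass1 passed the threshold in all 4 comparisons, with log2 fold changes of 0.18 and 0.44 in WT and 0.33 and 0.40 in TLR4-/- cells. Nos2 passed it in none of the 4, with values from -0.14 (SE 0.10) to 0.49 (SE 0.37).

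Between genotypes with PBS, 4 of the 8 genes differed, against 47.1% of all genes tested (23.2% higher in TLR4-/-, 24% lower), and 5 did not overlap, as 51.7% of all genes did not. Each group of fibroblasts came from a pool of lungs. In this and every other contrast of genotypes, genotype therefore cannot be told apart from cell preparation. Arg1 was higher in TLR4-/-, at 1489, 1385 and 1493 normalized counts against 471, 576 and 506, a log2 fold change of 1.49 (SE 0.24, edgeR adjusted p = 2.3e-05). Acod1 was higher by 0.45 (SE 0.10, edgeR adjusted p = 0.00070) and Ass1 by 0.36 (SE 0.05, edgeR adjusted p = 1.1e-05). Odc1 was lower, at 11835, 10619 and 10369 normalized counts against 16686, 18970 and 17144, a log2 fold change of -0.69 (SE 0.19, edgeR adjusted p = 0.0062). Gch1 missed the threshold at 0.24 (SE 0.11, edgeR adjusted p = 0.1005) and passed it without the second WT library with PBS (0.33, edgeR adjusted p = 0.0504). It also passed under RLE scaling (adjusted p = 0.098), with a mean count of at least 10 (0.076), with no filter (0.0028), with only the libraries compared (0.017), in a fit blocked on replicate number (0.095) and without the third TLR4-/- library with both proteins (0.019), all by edgeR. The values of Nos2 at 0.34 (SE 0.42), Arg2 at -0.02 (SE 0.36) and Slc7a2 at -0.29 (SE 0.28) were smaller than their errors or close to them. Beside these differences, 12 of the 13 macrophage markers were higher in the TLR4-/- libraries and 1, Marco, was lower, with a median log2 fold change of 1.89. All 5 endothelial markers were lower, at a median of -1.72. Of 4 smooth muscle markers 3 were lower and 1 higher, and of 9 fibroblast markers 4 were lower and 1 higher. All 3 epithelial markers tested were higher, at a median of 1.89. Their part in the differences of these genes was not tested.

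Levels of different genes were compared as normalized counts per kilobase of exon. With PBS in WT cells, Odc1 was the most abundant at 5169 ± 355 per kilobase (SD, n = 3), followed by Ass1 at 758 ± 43.2, Slc7a2 at 378 ± 96.0, Acod1 at 263 ± 25.0, Arg1 at 232 ± 24.1, Gch1 at 87.6 ± 10.1, Arg2 at 8.39 ± 0.372 and Nos2 at 2.35 ± 0.512. With rmCIRP, Odc1 stayed first at 15253 ± 898 per kilobase and Acod1 came next at 3661 ± 243. Slc7a2 followed at 2137 ± 114, then Ass1 at 1135 ± 28.4, Nos2 at 365 ± 50.8, Gch1 at 311 ± 7.13, Arg1 at 242 ± 8.19 and Arg2 at 37.5 ± 2.60. Acod1 had thus passed Slc7a2 and Ass1, and Nos2 had passed Gch1, Arg1 and Arg2. In TLR4-/- cells with PBS the order was Odc1 at 3213 ± 230.3, Ass1 at 977 ± 44.0, Arg1 at 653 ± 27.5 and Acod1 at 359 ± 16.7 per kilobase, and Nos2 was again last at 2.97 ± 0.918.

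The ratio of Nos2 to Arg1, both per kilobase, sets the gene of the nitric oxide branch against that of the arginase branch in one library. In WT cells with PBS the ratio was 0.0103 ± 0.00289 (SD, n = 3), and it reached 1.51 ± 0.262 in those given rmCIRP. It was 0.00974 ± 0.00219 under rmTGF-β1 and 0.906 ± 0.179 under both. The lowest rmCIRP library was at 1.33 and the highest library with both at 1.08, so these conditions did not overlap. Between them, Arg1 was called higher with both, as given above, and Nos2 was not called, at a log2 fold change of -0.14 (SE 0.10). In the libraries labelled TLR4-/- the mean ratio was between 0.00285 and 0.00456 in all 4 conditions. The ratio of Arg1 to Arg2 per kilobase was in WT cells 27.7 ± 3.39 (SD, n = 3) under PBS and 6.48 ± 0.667 under rmCIRP, and in TLR4-/- cells 80.1 ± 9.75 and 75.7 ± 23.3. Arg1 was the more abundant arginase mRNA in every condition.

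Other genes of the same pathways were read from 5 lists of 67 genes, of which 59 were tested. With rmCIRP in WT cells, 11 of the 59 rose and 21 fell, with a median log2 fold change of -0.05. The shares among all genes tested were 19.8% and 24.1%, and the counts of each list are to be read against these. Of 13 genes for nitric oxide synthesis, its cofactor and its receptor, none rose and 6 fell, among them the subunit genes of the nitric oxide receptor guanylate cyclase, Gucy1a1 at -0.73 (SE 0.10) and Gucy1b1 at -0.59 (SE 0.12), and Ddah2, of the dimethylarginine hydrolase family, at -0.59 (SE 0.08). Of 6 genes for arginine transport and synthesis, 1 rose, Slc3a2, the shared heavy chain of several amino acid exchangers, at 0.33 (SE 0.06). Of 15 genes for polyamines, ornithine and proline, 4 rose and 5 fell, with the spermine oxidase gene Smox at 0.76 (SE 0.15) and Gatm, which starts creatine synthesis from arginine, at -0.52 (SE 0.12).

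Of 17 genes for itaconate and the citrate cycle step it branches from, 1 rose and 8 fell. The 8 falls were small, with Sdha, a subunit of the succinate dehydrogenase that itaconate inhibits, at -0.14 (SE 0.03). The rise was that of the dicarboxylate carrier gene Slc13a3, at 1.22 (SE 0.35), on 8.99 ± 2.60 normalized counts under PBS and 21.2 ± 5.57 under rmCIRP (SD, n = 3 each). Of 8 regulators known to induce Nos2 and Acod1, 5 rose and 2 fell. Nfkb1, an NF-κB subunit gene, rose by 1.45 (SE 0.15) and Irf1 by 1.16 (SE 0.09), while Irf8 fell, at -0.86 (SE 0.10).

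**Figure D4:**
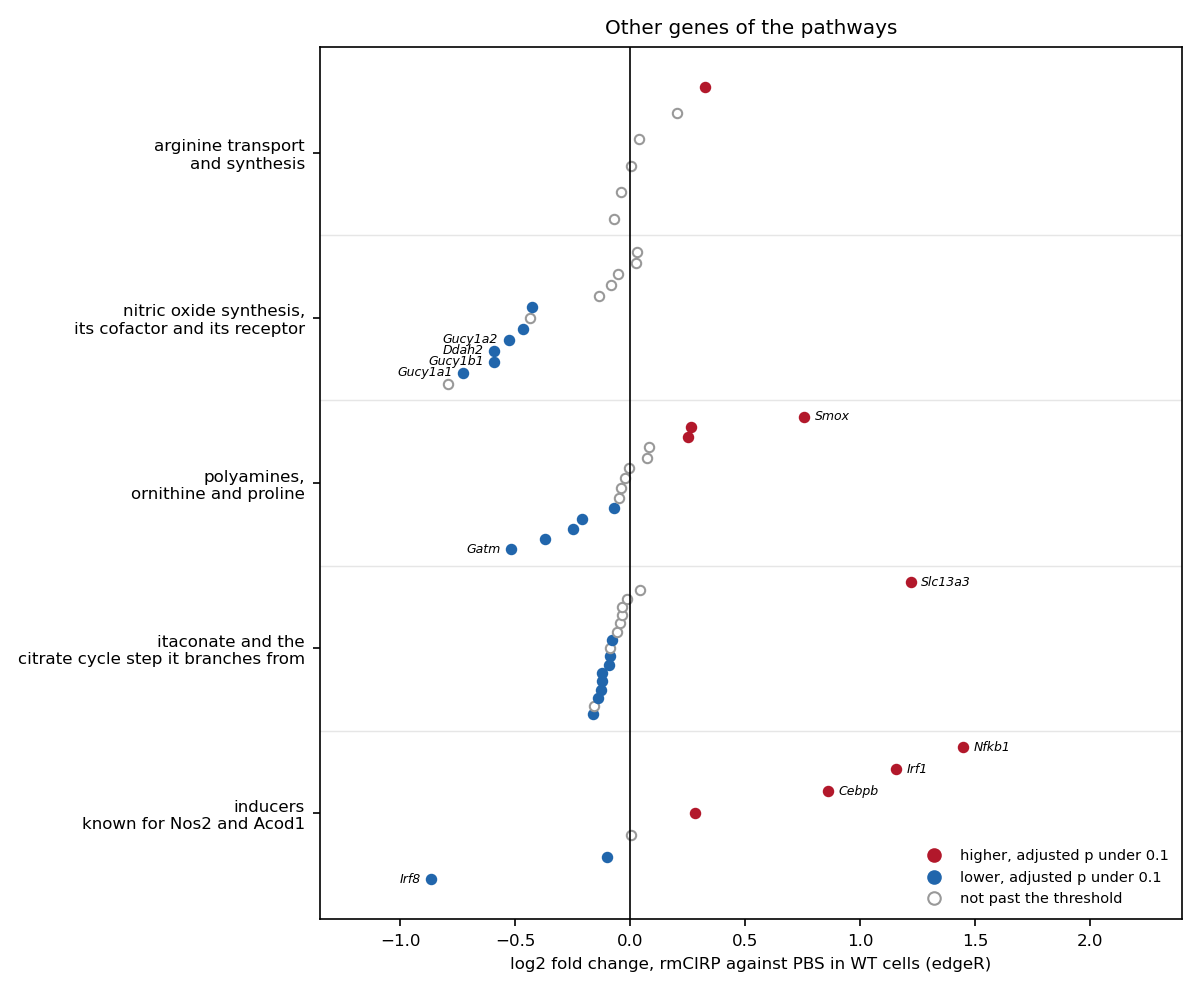
Log2 fold change (x axis) with rmCIRP against PBS in WT cells for other pathway genes tested, in 5 lists; red rose, blue fell and open circles did not pass an adjusted p under 0.1, and genes called beyond 0.5 in size are named. Points of the lists for nitric oxide and the citrate cycle lie mostly at or left of zero, and Nfkb1, Slc13a3 and Irf1 lie beyond 1 to the right.

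In the libraries labelled TLR4-/-, rmCIRP alone called none of the 59 pathway genes in edgeR, as none of all genes. With both proteins against rmTGF-β1 in WT cells, 14 of the 59 rose and 20 fell, where 20.5% of all genes rose and 21.7% fell, with Slc13a3 at 1.98 and Gucy1a1 at -0.69. With rmTGF-β1 alone, 10 rose and 3 fell in WT, where 5.77% of all genes rose and 6.65% fell. In TLR4-/- cells 11 rose and 3 fell, beside 12.1% and 11.7% of all genes. Gucy1b1 had one of these rises in both genotypes, from 767 ± 17 (SD, n = 3) to 1265 ± 61.4 normalized counts in WT and from 702 ± 42.8 to 1216 ± 148 in TLR4-/-, log2 fold changes of 0.72 (SE 0.11) and 0.80 (SE 0.12). In the list for polyamines, ornithine and proline, 7 of 15 genes rose with rmTGF-β1 in each genotype and none fell, with Sat1, the spermidine and spermine acetyltransferase, at 0.34 (SE 0.07) and 0.50 (SE 0.07) and the proline synthesis gene Pycr1 at 0.30 (SE 0.08) and 0.28 (SE 0.09).

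The genes most like each of the 8 over the 24 libraries were found by Pearson correlation of log2 CPM among 12310 other genes, or 12311 for Arg2. The 24 libraries fall into 8 conditions of 3, so these values are a description. For Nos2 the nearest were the cytokine subunit gene Il12b (r = 0.989) and the chemokine genes Ccl5 (r = 0.987) and Cxcl3 (r = 0.985). For Acod1 they were the adhesion molecule gene Icam1 (r = 0.990) and the chemokine gene Cxcl2 (r = 0.989), and for Gch1 Tnip1 (r = 0.991), an NF-κB inhibitor gene. Slc7a2 was nearest to Nfkb1 (r = 0.997) and the metalloproteinase gene Mmp10 (r = 0.990), and Odc1 to Ttc39c (r = 0.990). Arg2 was nearest to Serpinb2 (r = 0.961) and the cystine carrier gene Slc7a11 (r = 0.960), Ass1 to the growth factor gene Pdgfb (r = 0.964), and Arg1 to Frrs1 (r = 0.982). Among the 8 genes, Nos2 and Acod1 were the closest pair (r = 0.982) and Odc1 and Arg1 the most opposed (r = -0.456). Ass1 was only loosely tied to any of the others, with its highest value for Arg2 (r = 0.734). The highest value of Arg1 was lower still, for Ass1 (r = 0.347).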

How the data were processed

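Total RNA of 24 pulmonary fibroblast libraries was prepared with a TruSeq stranded kit per the labels. Per the paper, STAR2 was the aligner, the reference was mouse GENCODE, and the authors counted reads per gene with ht-seq. The deposited values are raw counts, not normalized. The submitters' processing notes name NCBIM37, FastQC and HTSeq. The annotation release and the strand option are not given in the sources used here, so reads of overlapping or antisense genes cannot be told apart. The 5 tally rows, 14.5 to 16.1% of all counted entries per library, were left out.

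Of 34285 genes with any count, edgeR 4.0.16 (R 4.3.3) kept 16258 by filterByExpr. After TMM scaling, 1 quasi-likelihood model of all 24 libraries with 8 condition means gave 13 contrasts, and SE is the log2 fold change over the root of F. Normalized counts use size factors of DESeq2 1.42.0 and describe levels only. Exon lengths came from GENCODE M21 by symbol. All 8 genes are named. Of each pathway list, genes were eligible to be named if past the threshold without overlap between libraries, at most the 3 largest rises and falls per comparison. The 8 genes and the lists were chosen with earlier results of these data known. Alternatives were RLE, no filter, a mean count of at least 10, DESeq2, a replicate block, fits of only the libraries compared, each library left out and, chosen after seeing the data, the third TLR4-/- library with both proteins left out everywhere. The model was tested on simulated data. Values of 2 pathway genes, counted in the list totals, are not reported here.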

Additional observations from a re-analysis of the deposited data

Results flagged for a closer look

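The response to rmCIRP differed between genotypes by a direct test for most of the 8 genes, and these differences were picked out because of that test. Compared with PBS, the log2 fold change in the libraries labelled TLR4-/- minus that in WT was -7.33 for Nos2, -3.95 for Acod1, -2.64 for Slc7a2, -2.05 for Arg2, -2.0 for Gch1, -1.59 for Odc1 and -0.69 for Ass1. In the presence of rmTGF-β1 it was -6.42 for Nos2, -4.08 for Acod1, -1.50 for Gch1, -1.46 for Slc7a2, -1.34 for Arg2 and -0.88 for Ass1. Without the third TLR4-/- library with both proteins, which stood apart, these 6 values were -6.26, -4.04, -1.69, -2.07, -1.78 and -0.91. The call of Arg2 under rmTGF-β1 did not hold in every fit, as given above. Tlr4 mRNA itself was not lower in the libraries labelled TLR4-/-, but counts per gene do not show whether reads covered a deleted part of it.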

How the results depend on the processing

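The 7 genes called with rmCIRP in WT cells, alone or with rmTGF-β1, and the 7 with a genotype difference in the rmCIRP response stayed 7 in number under every library left out. Leaving out one library at a time gave 0 to 1 called genes for rmTGF-β1 in WT (0 without the first or the third rmTGF-β1 library), 1 to 2 for both against rmCIRP in WT, compared with 3 in the full fit (1 without the first rmCIRP library or the first with both), and 0 to 5 for both against rmTGF-β1 in TLR4-/- (0 without the first or second rmTGF-β1 library or the third with both, 4 without the third rmTGF-β1 library, 3 without the second and 5 without the first with both). Without a filter on low counts, 4 genes were called for rmTGF-β1 in WT, 5 for both against rmCIRP in WT, 2 for the WT interaction, 4 for both against rmTGF-β1 in TLR4-/- and 1 for the genotype difference in the rmTGF-β1 response. With only the libraries compared, these counts were 3, 5, 2 and 0 in the same order for the first 4, and 3 for both against rmCIRP in TLR4-/-. DESeq2 called 2 for rmTGF-β1 in WT and 2 for both against rmTGF-β1 in TLR4-/-, and gave no adjusted p for Arg2 there. Without the third TLR4-/- library with both proteins anywhere, 2 were called for rmTGF-β1 in WT. RLE and a mean count of at least 10 moved none of these counts by over 1.5 times. The cause was not tested.

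Same-numbered libraries of different conditions had a mean correlation of deviations of 0.012, from -0.117 to 0.369, with 4 of 84 pairs over 0.1. This mean over all pairs does not settle whether the libraries of any one comparison were paired. With the number as a replicate block, 3 genes were called for both against rmTGF-β1 in TLR4-/- in place of 1, and 810 genes in all in place of 437. In that comparison the third libraries correlated at 0.369, the first at 0.182 and the second at 0.064, all positive. The labels do not say whether these libraries were paired by number.

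Counts over all genes moved by over 1.5 times as follows. For the WT interaction (8), they were 198 without a filter, 37 with DESeq2, 125 with only the libraries compared and 23 without the library that stood apart. For rmCIRP in TLR4-/- (0), they were 149, 33, 29 and 14 in that order, and 1 with the block. For both against rmTGF-β1 in TLR4-/- (437), they were 1580, 899 and 0. For both against rmCIRP there (5329), only the libraries compared gave 2710. For the genotype difference in the rmTGF-β1 response (14), they were 563 without a filter, 23 at a mean count of 10, 22 with the block, 165 with DESeq2 and 179 without the library that stood apart. With one library left out at a time, the 437 genes of both against rmTGF-β1 in TLR4-/- became 1 without the third library with both, 0 without the first and 79 without the second with rmTGF-β1, and at most 2674. The 2019 of rmTGF-β1 in WT fell to 1253 without the third PBS library and 1029 without the second with rmTGF-β1, and the 3884 of rmTGF-β1 in TLR4-/- fell to 2517 without the third library with rmTGF-β1. The 14 of the genotype difference in the rmTGF-β1 response ran from 0 to 119, with 119 without the second TLR4-/- library with rmTGF-β1, the 8 of the WT interaction fell to 2 at the lowest, without the third WT library with rmCIRP, and the 0 for rmCIRP in TLR4-/- became 9 without the third library with rmCIRP.

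Some log2 values, none of them called in the full fit, changed sign when one library was left out. For both against rmTGF-β1 in TLR4-/- they ran from -9.2e-05 to 0.72 for Arg1, -0.10 to 0.023 for Ass1, -0.045 to 0.28 for Gch1 and -0.0075 to 0.74 for Nos2. For rmCIRP in TLR4-/- they ran from -0.16 to 0.28 for Arg2, -0.26 to 0.22 for Nos2 and -0.078 to 0.024 for Odc1. For rmTGF-β1 they ran from -0.32 to 0.28 for Nos2 and -0.35 to 0.072 for Slc7a2 in TLR4-/-, and from -0.33 to 0.050 for Slc7a2 in WT. In the WT interaction they ran from -0.0087 to 0.55 for Arg2 and -0.34 to 0.023 for Slc7a2, and for both against rmCIRP in WT from -0.077 to 0.034 for Arg2. Between genotypes with PBS, Arg2 ran from -0.15 to 0.045. Genotype differences ran from -0.32 to 0.40 for Arg1 in the rmCIRP response under rmTGF-β1, and from -0.048 to 0.14 for Gch1 and -0.18 to 0.27 for Slc7a2 in the rmTGF-β1 response. Low counts limit Nos2 and Arg2 outside the WT libraries with rmCIRP.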

Other observations

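Between genotypes with PBS, 19 of the 59 other pathway genes were higher in the libraries labelled TLR4-/- and 10 were lower, by edgeR, where 23.2% of all genes tested were higher and 24% lower. Irf8, a regulator of myeloid cells, had the largest of these differences, at a log2 fold change of 2.06 (SE 0.08), from 280 ± 30.3 (SD, n = 3) normalized counts in WT to 1172 ± 58.3 in TLR4-/-. Slc7a7, a light chain of arginine export, was higher by 1.31 (SE 0.08), with 219 ± 3.46 normalized counts in WT and 544 ± 29.7 in TLR4-/-. Gatm was higher by 1.18 (SE 0.10) and the nitric oxide synthase trafficking gene Nostrin by 0.99 (SE 0.16), while the guanylate cyclase subunit gene Gucy1a1 was lower, at -0.65 (SE 0.10), and Ddah2 at -0.50 (SE 0.08). The macrophage markers were higher in the same libraries, as given beside the 8 genes, and their part in these values was not tested.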
